A study of Bos taurus with 12 samples.

Results

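GJB2, GJB6 and CGN encode proteins of cell junctions, and their transcripts were followed in the papillae of the rumen, through which acids made by fermentation are taken up. The genes were chosen by symbol, as every probe set whose only gene in the array's probe-to-gene table was one of the 3, and they were picked for interest with earlier weekly results of these data known. This gave 5 probe sets of the 13292 that named 1 gene, 3 for GJB2 and 1 each for GJB6 and CGN, and 3 of 9155 named genes. Each probe set was followed separately. CGN1, the gene of the serum protein conglutinin, has a similar symbol and was not taken.

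The papillae came from the ventral sac of the rumen of 4 Holstein dairy cows, whose age the sources used here do not give. Each cow was sampled on a high forage diet, the control at week 0, and again at weeks 1 and 3 on grain, which gave 4 arrays a week. Every cow moved from forage to grain, so diet and calendar time cannot be told apart. A papilla holds a stratified epithelium over a core of connective tissue and vessels, and fewer cells of a type and less RNA per cell cannot be told apart in RNA of the whole tissue.

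Connexins assemble into hexameric channels that dock between neighbouring cells to form gap junctions, through which ions and small molecules pass. GJB2 encodes Cx26 and GJB6 Cx30, close relatives that can share a channel and are known from stratified epithelia such as epidermis and from the inner ear. GJB2 and GJB6 lie near each other in the ARS-UCD2.0 gene table, with 1 predicted protein-coding gene between them, and GJA3, another connexin, follows GJB2. CGN encodes cingulin, which sits on the cytoplasmic face of tight junctions, binds ZO proteins and myosin, and holds the RhoA activator GEF-H1 in an inactive state. Tight junctions seal the space between epithelial cells, and in the rumen they hold the barrier to fermentation acids and microbial products.

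Each log2 value is a distance from the median that its probe set has across the 12 arrays, so values compare arrays and give no level of a gene. The presence of epithelial markers could therefore not be checked as a level. The array medians over all 24016 probe sets lay between -0.0506 (week 1 of cow 1) and 0.0544 (week 1 of cow 2). The 18 hybridization control probe sets averaged 0.48 to 0.72 on 3 arrays, weeks 0 and 1 of cow 1 and week 0 of cow 2, and -0.32 to 0.05 on the other 9. The mean 3' minus 5' difference of 6 bovine control transcripts, a sign of RNA quality, lay between -0.12 and 0.13. The control values are centred per probe set too, so this difference compares arrays and gives no level of RNA quality. Weekly differences are from limma over all 24016 probe sets, with a mean per week, and a probe set was called at a Benjamini-Hochberg adjusted p under 0.05. The SE given with a difference is that of this fit, the same in all 3 comparisons and without pairing by cow. It is not the spread of the differences within cows. Of all probe sets 0.0% were called in each of the 3 comparisons of weeks and in the F test of the 3 weeks together, and none of the 5 was among them. In the fit that adds cow as a block 0.00833% passed for week 1 against week 0 and 0.0% in the other 2 comparisons of weeks, again none of the 5. At an unadjusted p under 0.05 there were 1237, 933 and 1172 probe sets for week 1 against week 0, week 3 against week 0 and week 3 against week 1, and the F test gave 1204. The higher ones were 63.7% for week 1 against week 0 and 65.0% for week 3 against week 0, but 43.4% and 48.4% after quantile normalization of the arrays. Because the genes were picked with such differences known, the weekly differences below are a description.

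GJB6 was lowest at week 1 in every cow, and its mean was highest at week 3. On forage its log2 values were 1.00, -0.42, -0.34 and 0.96 in cows 1 to 4. After a week of grain they were -0.19, -1.04, -2.52 and -0.13, and at week 3 they were 0.20, 1.53, 0.13 and 1.90. All 4 arrays of week 1 lay below all 4 of week 3, while week 0 overlapped both. The weekly means were 0.30 ± 0.79, -0.97 ± 1.11 and 0.94 ± 0.91 (SD, n = 4 cows) at weeks 0, 1 and 3.

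From week 0 to week 1 the GJB6 difference was -1.27 ± 0.62 on the log2 scale (SE, n = 4 cows), a 2.41-fold lower value, and the differences within cows were -1.20, -0.62, -2.17 and -1.09. The difference was -0.76 without the array of week 1 of cow 3, which held the lowest GJB6 value, -2.52. Of all probe sets 3.39% were lower at week 1 in all 4 cows, as GJB6 was, and 5.12% were higher in all 4 from week 1 to week 3. From week 1 to week 3 the GJB6 difference was 1.91 ± 0.62, 3.75-fold, with 0.39, 2.56, 2.65 and 2.03 within cows. Cow 1 had the smallest of these later differences. Week 3 stood 0.64 ± 0.62 above week 0, about its standard error, and cow 1 went the other way at -0.81 against 1.95, 0.47 and 0.94 in cows 2 to 4. That last difference was 1.12 without cow 1 and 0.20 without cow 2. Of all probe sets 1.07% had every week 3 array above every week 1 array, as GJB6 did.

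GJB6 varied far more than the other probe sets followed here. Its SD over the 12 arrays, 1.19, was at percentile 99.6 of all probe sets, and its values spanned 4.41 log2 units. Weeks took up 48.5% of its variance and cows 33.3%, which left 18.2% to neither. Unrelated values grouped by week and cow also give some share to each, and shares over all probe sets were not computed. With the cow as a block the standard error of the weekly differences of GJB6 was 0.43, and the call did not change.

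**Figure D1:**
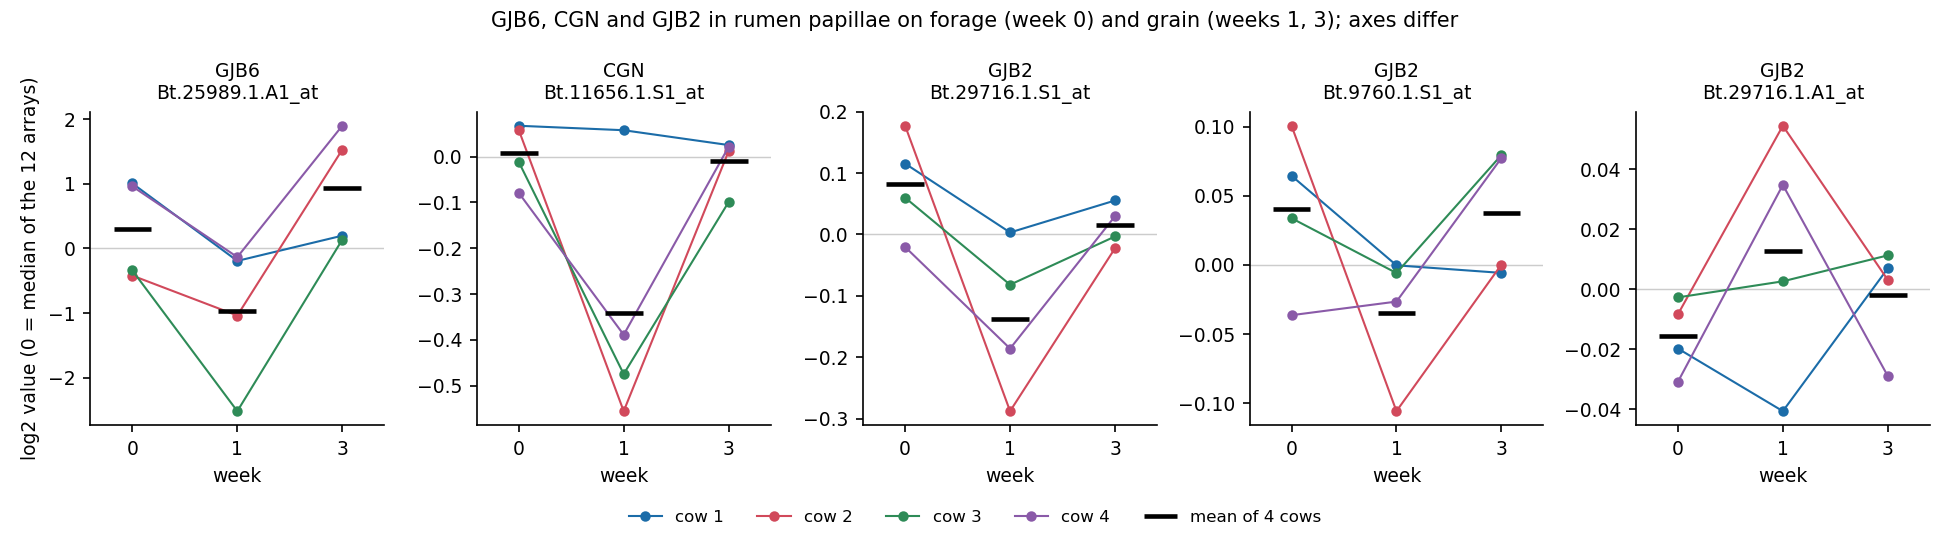
Log2 values of the 5 probe sets of GJB6, CGN and GJB2 by week, where 0 is the median of the 12 arrays, points joined by a line are 1 cow, black bars are the mean of 4 cows, and each panel has its own axis. GJB6 lies lowest at week 1 in all 4 cows, CGN drops to between -0.56 and -0.39 at week 1 in cows 2, 3 and 4 and stays at 0.06 in cow 1, and 1 probe set of GJB2 (right) moves within 0.1 log2 units.

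CGN was lower at week 1 in cows 2, 3 and 4 and hardly moved in cow 1. Its values were 0.07, 0.06, -0.01 and -0.08 in cows 1 to 4 on forage. They were 0.06, -0.56, -0.47 and -0.39 after 1 week of grain, and 0.03, 0.01, -0.10 and 0.02 at week 3. Cow 1 at week 1 was the only array of that week that overlapped the other weeks. The weekly means were 0.01 ± 0.07, -0.34 ± 0.27 and -0.01 ± 0.06 (SD, n = 4 cows), so the spread between cows was widest at week 1.

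The CGN difference from week 0 to week 1 was -0.35 ± 0.11 (SE, n = 4 cows), 1.27-fold lower, with -0.0097, -0.61, -0.46 and -0.31 within cows. From week 1 to week 3 it was 0.33 ± 0.11, with -0.03 in cow 1 and 0.57, 0.38 and 0.41 in the others. Week 3 differed from week 0 by -0.02 ± 0.11. These differences rest on how cow 1 is treated. Without the array of week 1 of cow 1 they were -0.48 (limma, adjusted p = 0.0197) and 0.46 (limma, adjusted p = 0.0174). CGN was thus among the 45 and 38 probe sets called. At an unadjusted limma p under 0.05 there were 10340 from week 0 to week 1, 88.8% of them higher, against 1237 with all 12 arrays. From week 1 to week 3 there were 4293, 31.6% of them higher, against 1172. The array left out had the lowest median, -0.0506. This fit was not repeated on centred arrays, so the part of a shift of whole arrays in these calls was not tested. Without all 3 arrays of cow 1 CGN was not called (limma, adjusted p of 0.176 and 0.134), at -0.46 and 0.45. Leaving out the 3 high-control arrays, among them week 1 of cow 1, the differences were -0.43 and 0.46 (limma, adjusted p of 0.105 and 0.0506). The 3' minus 5' difference was -0.115 on the array of week 1 of cow 1 and between -0.05 and 0.03 on the other arrays of week 1. The part of these controls in the result was not tested. CGN was lower at week 1 in 4 of 4 cows as deposited and in 3 of 4 after each array was centred on its median, since the difference in cow 1 was so small. Weeks took up 55.2% of its variance over the 12 arrays, cows 19.9% and neither 24.9%.

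GJB2 was measured by 3 probe sets, which did not show the same course and are called here by their SD over the 12 arrays, 0.13 in the most variable, 0.06 in the intermediate and 0.03 in the least variable. For the most variable GJB2 probe set the values were 0.12, 0.18, 0.06 and -0.02 in cows 1 to 4 on forage. They were 0.0033, -0.29, -0.08 and -0.19 at week 1, and 0.06, -0.02, -0.0033 and 0.03 at week 3. The arrays of week 1 overlapped those of both other weeks, although each cow had its lowest value at week 1. The difference from week 0 to week 1 was -0.22 ± 0.06 (SE, n = 4 cows), 1.17-fold lower, and within cows it was -0.11, -0.46, -0.14 and -0.17. From week 1 to week 3 it was 0.15 ± 0.06, with 0.05, 0.27, 0.08 and 0.22 within cows, and week 3 differed from week 0 by -0.07 ± 0.06. After arrays were centred the later difference was above 0 in 3 of 4 cows. Weeks took up 58.6% of the variance of this probe set, against 37.9% for the intermediate and 19.3% for the least variable one.

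The intermediate GJB2 probe set followed a similar course with smaller differences. Its values were 0.06, 0.10, 0.03 and -0.04 in cows 1 to 4 at week 0, and -0.00026, -0.11, -0.0058 and -0.03 at week 1. At week 3 they were -0.0057, 0.00026, 0.08 and 0.08. Week 1 overlapped both other weeks. It differed by -0.08 ± 0.04 (SE, n = 4 cows) from week 0 to week 1, lower in cows 1, 2 and 3, and by 0.07 ± 0.04 from week 1 to week 3, higher in cows 2, 3 and 4. After arrays were centred it was lower at week 1 in 4 of 4 cows.

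The least variable GJB2 probe set moved the other way and by very little. Its values lay between -0.03 and -0.0027 at week 0, between -0.04 and 0.05 at week 1 and between -0.03 and 0.01 at week 3. Its SD was at percentile 5.34 of all probe sets, against 52.0 for the most variable GJB2 probe set and 28.8 for the intermediate GJB2 probe set. The difference from week 0 to week 1 was 0.03 ± 0.03 (SE, n = 4 cows). Over the 12 arrays this probe set had a Pearson r of 0.987 with the array medians, and after each array was centred on its median the same difference was 0.0022. For the other probe sets that r was -0.70 for the most variable GJB2 probe set, -0.49 for the intermediate GJB2 probe set, -0.38 for GJB6 and -0.74 for CGN. Their differences from week 0 to week 1 after centring were -0.25, -0.10, -1.30 and -0.37. Centring lowers this difference by the same amount in every probe set, so differences below 0 had to move slightly further from 0.

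**Figure D2:**
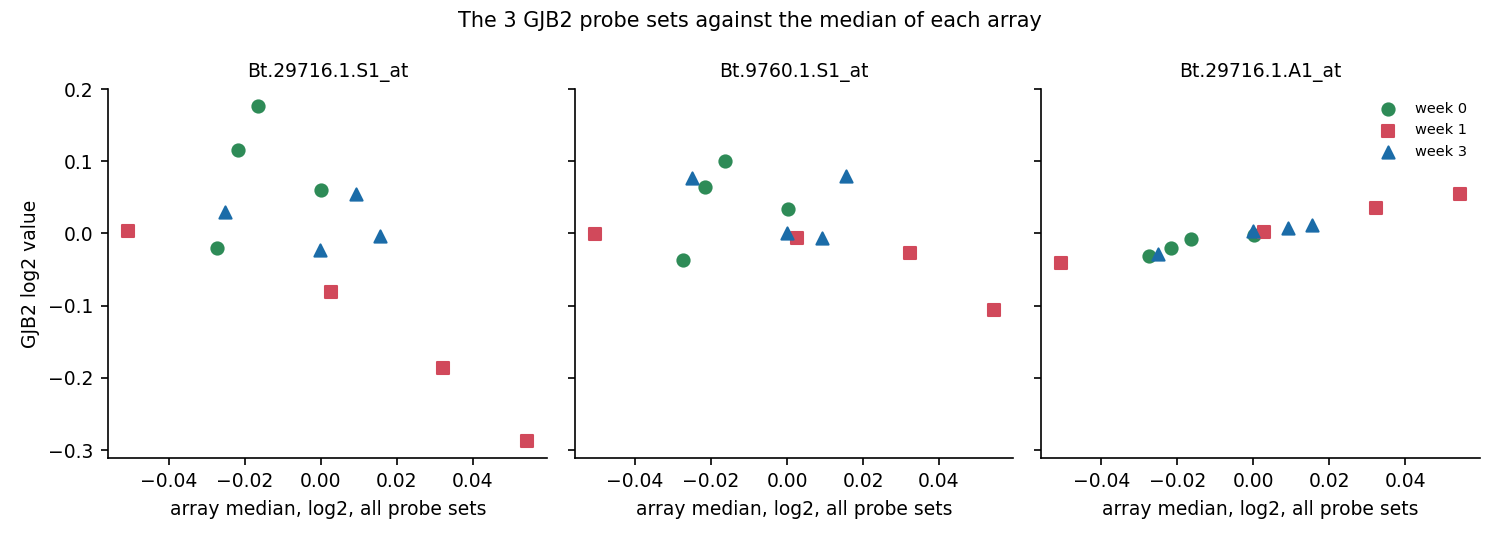
Log2 values of the 3 GJB2 probe sets (vertical axis) against the median of the same array over all probe sets (horizontal axis, log2), with 1 point per array and the week by colour and shape. The least variable GJB2 probe set lies on a line (r = 0.987), while the other 2 probe sets have their lowest values in week 1 arrays of cow 2, whose array median is the highest.

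The course of CGN was close to that of the most variable GJB2 probe set and less close to that of GJB6. Over the 12 arrays r was 0.88 between CGN and the most variable GJB2 probe set, 0.66 between CGN and GJB6, and 0.35 between GJB6 and the most variable GJB2 probe set. After the mean of each cow was removed these were 0.89, 0.77 and 0.52. The 2 varying probe sets of GJB2 had r = 0.83 with each other, or 0.87 within cows. The arrays are 3 from each of 4 cows and are shared by every pair, so these values describe likeness. A value at week 1 below both other weeks in all 4 cows was found in GJB6 and in the most variable GJB2 probe set and in 1.47% of all probe sets, and CGN missed it through cow 1 alone.

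Of the other connexin and pannexin genes on a list of 22 drawn up for the family, 6 were measured, by 9 probe sets. They were GJA1, a widely expressed connexin, GJB1, GJB5, GJC1, GJD2 and PANX1. None was called (lowest adjusted p = 0.763 for week 1 against week 0), against 0.0% of named genes. Their differences from week 0 to week 1 lay between -0.03 and 0.03 with a median of 0.02, against a median of 0.02 over all 9155 named genes, and after centring of arrays their median was -0.0018. GJC1 and GJB1, the pair with the smallest p in the F test, were at 0.03 ± 0.03 and 0.02 ± 0.03 (SE, n = 4 cows). From week 1 to week 3 the 6 genes lay between -0.0077 and 0.01. Of their 9 probe sets 7 had r over 0.9 with the array medians, against 33.9% of all probe sets, and both probe sets of GJA1 were the exceptions, at -0.56 and 0.84.

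**Figure D3:**
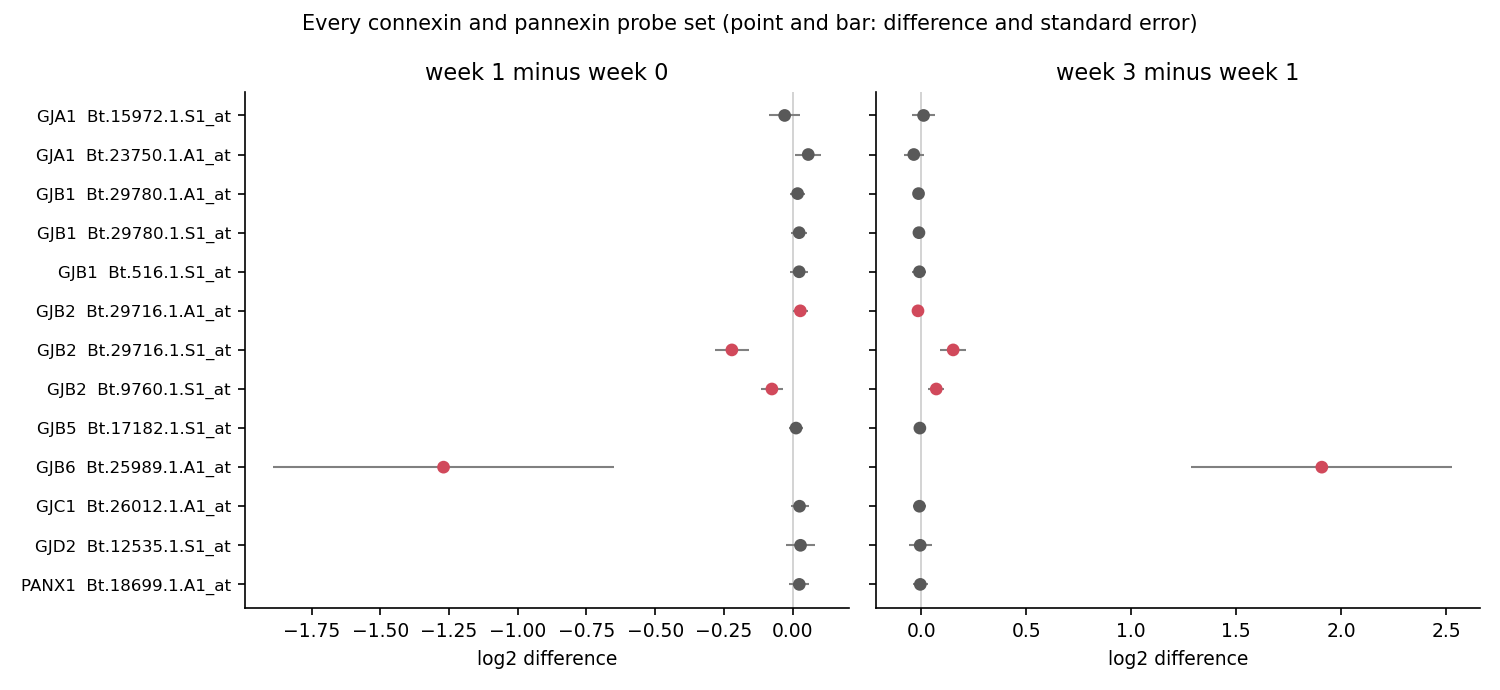
Log2 differences of every connexin and pannexin probe set from week 0 to week 1 (left) and from week 1 to week 3 (right), with GJB2 and GJB6 in red, other genes in grey, and bars for the standard error of the model. GJB6 stands at -1.27 and 1.91 with a standard error of 0.62, and probe sets of genes other than GJB2 and GJB6 lie within 0.06 of 0.

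Among transmembrane proteins of tight junctions 19 of 34 listed genes were measured, most of them claudins, which form the paracellular seal. None was called in any comparison (lowest adjusted p = 0.763 for week 1 against week 0). At week 1 against week 0, 4 were lower (21.1%, against 36.7% of named genes), with a median of 0.03 and a range of -0.11 to 0.24. None was lower in all 4 cows, against 5.29% of named genes. JAM2, a junctional adhesion molecule of endothelium, was at 0.24 ± 0.12 and LSR, which marks tricellular contacts, at 0.10 ± 0.08 (SE, n = 4 cows). LSR at week 3 was 0.18 ± 0.08 above week 0, higher in all 4 cows. In that comparison 17 of the 19 genes were higher, as were 5906 of the 9155 named genes. In all 4 cows 9 of the 19 were higher, which is 47.4% against 28.1% of named genes, counted on the values as deposited. The array median was also higher at week 3 than at week 0 in each of the 4 cows. A probe set that only follows the array median is therefore counted as higher in all 4. The count was not repeated on centred arrays, and the part of this shift in it was not tested. The median was 0.03, or 0.01 after centring of arrays. The largest difference of the list from week 1 to week 3 was 0.43, for CLDN7, and the median was -0.0031, or 0.0067 after centring of arrays.

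Cingulin is a plaque protein, and 12 of the 24 other listed plaque and polarity proteins were measured. Their median difference was -0.0024 from week 0 to week 1, with 6 lower and 6 higher, and -0.0059 from week 1 to week 3, and none was called (lowest adjusted p = 0.763 and 0.999). The later median was 0.0038 after centring and 0.04 without cow 1. TJAP1, a tight junction protein also found at the Golgi, had the lowest difference at week 1, -0.52 ± 0.29 (SE, n = 4 cows). It was the only gene of this list lower in all 4 cows, at 0.66, -0.48, -0.0044 and 0.44 on forage and 0.03, -0.82, -0.40 and -0.28 after 1 week of grain. The groups overlapped. From week 1 to week 3 TJAP1 was at 0.29 ± 0.29, higher in all 4 cows, as were 7.35% of named genes. Of the ZO proteins, TJP1 was at -0.03 ± 0.40 and TJP3 at -0.30 ± 0.23 (SE, n = 4 cows) from week 0 to week 1, and TJP3 was lower in 3 of 4 cows. The sign was the opposite in 1 of 2 probe sets of TJP1 and in 1 of 3 of TJP3. PARD6B, a polarity protein, was at -0.05 ± 0.09 and 0.14 ± 0.09 in these 2 comparisons.

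On the path from cingulin to the contractile ring, 7 of 16 listed genes were measured and none was called. Their median from week 0 to week 1 was 0.06, or -0.01 without cow 1. ARHGEF2, the gene of GEF-H1, was at -0.10 ± 0.15 from week 0 to week 1 and RHOA at 0.06 ± 0.14 (SE, n = 4 cows). Of the 3 probe sets of ARHGEF2, 1 had the opposite sign. ROCK2, a kinase downstream of RhoA, was at 0.11 ± 0.28 at week 1 and -0.69 ± 0.28 from week 1 to week 3. MYH10, a nonmuscle myosin heavy chain, was at 0.84 ± 0.54 from week 0 to week 1. Its values in cows 1 to 4 were -0.49, -1.16, -0.07 and -0.54 at week 0 and -1.50, 1.27, 0.23 and 1.09 at week 1.

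Of 11 listed adherens junction genes 7 were measured, 6 of them below their week 0 mean at week 1 (median -0.09), and none was called. Over all named genes 36.7% were lower. NECTIN2, a cell adhesion molecule, was at -0.32 ± 0.15 (SE, n = 4 cows) from week 0 to week 1, lower in all 4 cows, and at 0.52 ± 0.15 from week 1 to week 3, higher in all 4. Its 3 probe sets had the same sign in both comparisons. CDH3, the P-cadherin of basal cells, was at -0.19 ± 0.17 and 0.37 ± 0.17, and CDH1, the E-cadherin, at -0.03 ± 0.09 and 0.04 ± 0.09.

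**Figure D4:**
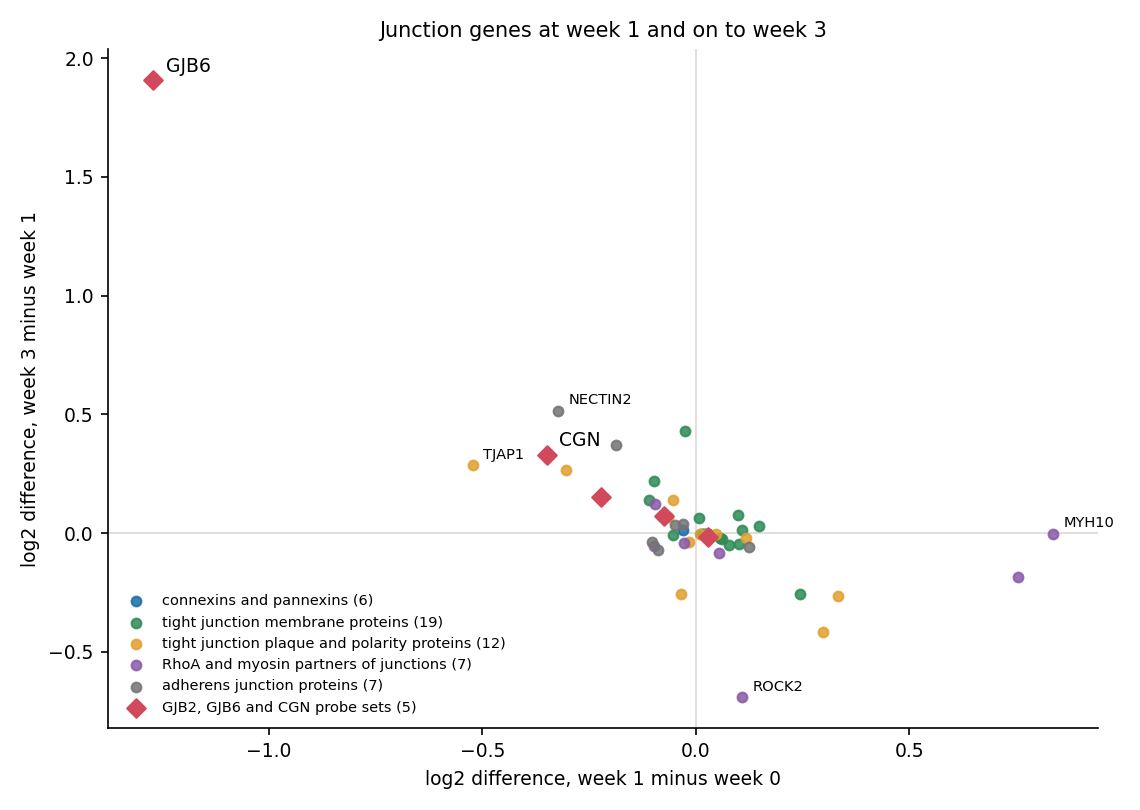
Log2 difference from week 1 to week 3 (vertical axis) against that from week 0 to week 1 (horizontal axis) for 51 measured junction genes, 1 probe set each, coloured by list, with the 5 probe sets of GJB2, GJB6 and CGN as red diamonds. The axes share week 1, so some downward slope is built in; GJB6 lies farthest to the upper left, and NECTIN2 and TJAP1 lie, like CGN, to the upper left of 0.

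The named genes most like CGN over the 12 arrays were GRHL1 (r = 0.944), a transcription factor of differentiating epithelium, NCK2 (r = 0.942), a signalling adaptor, and TGM3 (r = 0.918), a transglutaminase of the cornified layer. The ranking ran over 13292 probe sets, with the best of each gene kept and genes with placeholder symbols such as LOC passed over. High values are expected at the top of so long a ranking. GRHL1 was at -0.52, -0.52 and -0.31 in cows 2, 3 and 4 at week 1 and at 0.16 in cow 1, and its values at weeks 0 and 3 lay between -0.04 and 0.09. TGM3 at week 1 was at 0.02 in cow 1 and at -0.74, -0.67 and -0.72 in the others. Cow 1 stood apart at week 1 in all of these, and NCK2 was even higher there, at 0.34. The 3 genes were picked by their likeness to CGN over these same arrays, so a course shared with CGN is built in.

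**Figure D5:**
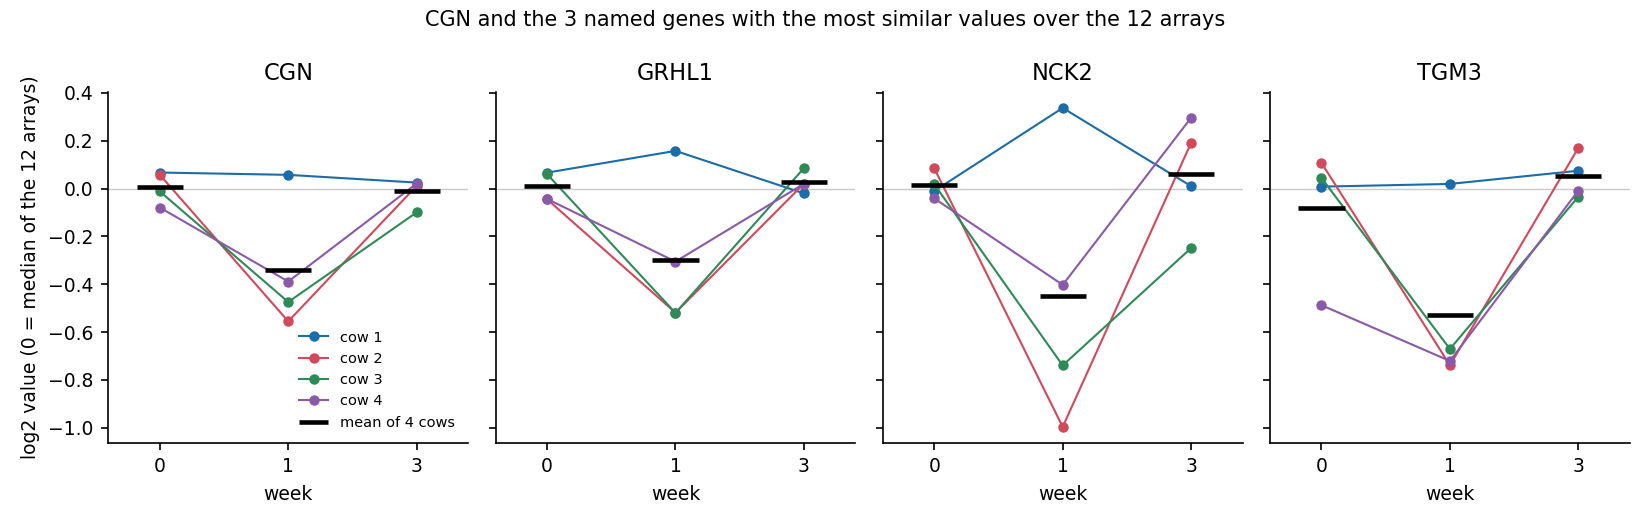
Log2 values by week of CGN, GRHL1, NCK2 and TGM3, where 0 is the median of the 12 arrays, lines join the arrays of 1 cow and black bars are the mean of 4 cows. In each panel cows 2, 3 and 4 are lowest at week 1 and cow 1 is not. GRHL1, NCK2 and TGM3 were picked by likeness to CGN over these arrays, so a shared course is built in.

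The genes most like GJB6 were EFS, an adaptor of SRC kinases (r = 0.876), RNF103, a ubiquitin ligase (r = 0.873), and DHRS3, a retinal reductase (r = 0.867). For the most variable GJB2 probe set they were S100A9, a calcium-binding protein of neutrophils and inflamed epithelium (r = 0.929), MATK (r = 0.920) and EIF4H (r = 0.916), and for the intermediate GJB2 probe set they were PLPP2 (r = 0.864), BSPRY (r = 0.859) and RPLP0 (r = 0.824). S100A9 differed by -0.86 from week 0 to week 1 and by 0.85 from week 1 to week 3. The least variable GJB2 probe set was most like ZSCAN16, VPS50 and DMBT1 (r of 0.995 to 0.996), whose probe sets had an SD of 0.03 each. The 3 GJB2 probe sets shared no gene among these.

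Markers of the layers and other cell types of the papilla were set beside these courses. The mean of 8 measured markers of suprabasal epithelial cells, among 18 listed, lay between -0.11 and 0.13 on the arrays of week 0, between -0.44 and -0.0086 at week 1 and between -0.06 and 0.06 at week 3. It was lower at week 1 than at week 0 in 4 of 4 cows, by 0.14 to 0.52, and higher at week 3 than at week 1 in 4 of 4. Over the 12 arrays this mean had r = 0.94 with CGN, 0.89 with the most variable GJB2 probe set and 0.55 with GJB6. GRHL1 and TGM3 are among its 8 genes, and DMKN, a secreted epidermal protein, had the lowest difference of them from week 0 to week 1, -1.79. The mean of the 8 differences was -0.32 and their median -0.11, and KRT10, at 0.18, and KRT4, at 0.01, were higher. Without DMKN the mean difference was -0.12, lower in 3 of 4 cows, and from week 1 to week 3 it was 0.18 in place of 0.30, higher in 3 of 4. The r without DMKN was 0.81 with CGN, 0.72 with the most variable GJB2 probe set and 0.37 with GJB6. The part of these markers in the course of CGN, GJB2 and GJB6 was not tested.

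The mean of 7 measured basal markers, of 11 listed, lay between 0.08 and 0.33 at week 0, between -0.30 and 0.25 at week 1 and between -0.26 and 0.04 at week 3. It was lower in 4 of 4 cows both at week 1 and at week 3 than on forage, while GJB6 at week 3 was above its forage value in 3 of 4. Among these 7 genes 6 were lower at week 1 than at week 0, over a range of -0.94 to 0.14 (median -0.31). At week 3, 5 were lower and 2 higher than at week 0, over a range of -1.20 to 0.19 (median -0.20). The r of the basal mean was 0.65 with CGN, 0.62 with the most variable GJB2 probe set and 0.33 with GJB6. The mean of 12 fibroblast and matrix markers, of 14 listed, lay between -0.45 and 0.03 at week 0, between -0.39 and 0.30 at week 1 and between 0.13 and 0.32 at week 3, and it was higher at week 1 than at week 0 in 4 of 4 cows. Of these 12 genes 8 were higher and 4 lower at week 1 than at week 0, over a range of -0.65 to 0.72. The r of the fibroblast mean with CGN was 0.08 and with GJB6 0.23. Vessel and smooth muscle markers (11 of 11 listed) had means of 0.03 to 0.22, -0.13 to 0.13 and -0.12 to 0.08 at weeks 0, 1 and 3, with r = -0.06 for CGN and -0.12 for GJB6, and their mean was lower in 4 of 4 cows both at week 1 and at week 3 than at week 0. Of these 11 genes 6 were lower and 5 higher in each of the 2 comparisons, with medians of -0.05 and -0.04. Leukocyte markers (13 of 15) had means of -0.53 to 0.33, -0.34 to 0.08 and -0.16 to 0.50, with r = 0.42 for CGN and 0.23 for GJB6. The leukocyte mean was higher at week 3 than at week 1 in 4 of 4 cows, by 0.18 to 0.48, as GJB6 was in 4 of 4. Its genes did not move together, with 7 higher and 6 lower, a median of 0.06 and a range of -0.47 to 1.43. From week 1 to week 3 the fibroblast mean was higher in 3 of 4. On this scale no marker has a level, so which markers are absent could not be read, and the part of these cells in the results was not tested.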

How the data were processed

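Biotin-labelled cRNA from total RNA of rumen papillae was hybridised to Affymetrix arrays, per the labels' protocols, for 4 cows at each of 3 weeks. The deposited log2 values were made by the authors with GCRMA, per the submitters' processing notes, with no version given in the sources used here. In the deposited values the median of each probe set over the 12 arrays is 0, so no level, background or detection call is held. The log base was not stated and was taken as 2, because the widest range of any probe set, 11.2, read as natural logs would mean a 74399-fold change, more than the 65535 levels a 16-bit scanner can record. The number of arrays limits the precision.

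The 112 AFFX controls were left out and 24016 probe sets were fitted with limma 3.58.1 (R 4.3.3; lmFit, eBayes without a trend, two-sided) with a mean per week. The fit was run on simulated data with independent arrays and no cow effect. That run does not cover arrays of the same cow or shifts of whole arrays. Gene IDs of 13263 of 13292 probe sets naming 1 gene were found in the ARS-UCD2.0 gene table, used for current symbols and gene order. Listed genes were represented by their probe set of largest SD. Named were all 5 probe sets, the 3 genes most like each, and from each of 5 junction lists the 2 genes of smallest F test p. CLDN7, TJP1, TJP3, ARHGEF2, RHOA, CDH1, DMKN, KRT4 and KRT10 were named after their values were seen. The members, lists and tests were chosen with earlier results of these data known.

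The same cows were sampled at each week. Deviations from the weekly means correlated at 0.303 to 0.690 between arrays of a cow and -0.435 to 0.0662 between cows, so each test was also fitted with cow as a block. The other alternatives were quantile normalization, centring of arrays, a filter on SD, and leaving out arrays or cows. Counts of cows after centring or quantile normalization, and list medians after centring, without the high-control arrays or without cow 1, and the suprabasal mean without DMKN were added after seeing the data.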

Additional observations from a re-analysis of the deposited data

Results flagged for a closer look

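In 15 groups of 4 arrays, 1 for each of the 5 probe sets at each week, 1 array stood apart from the rest of its group by Dixon's criterion. CGN at week 3 was at -0.10 in cow 3, against 0.01 to 0.03 in the other 3 cows, a gap of 0.893 of the range. Chance gives about 1 such group in 20.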

How the results depend on the processing

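Each weekly difference of the 5 probe sets was refitted under up to 21 alternatives, 16 of which left out 1 array or 1 cow. The least variable and the intermediate GJB2 probe set fell below the SD filter and have no value there. For week 1 against week 0 and week 3 against week 1, GJB6, CGN and the most variable and the intermediate GJB2 probe set kept their direction in all of them. Only CGN without week 1 of cow 1 was called. The least variable GJB2 probe set turned to -0.00093 at week 1 against week 0 with quantile normalization, and at week 3 against week 0 to -0.0041 with it and -0.0027 with centred arrays. At week 3 against week 1 it turned to 0.0016 without cow 4. The difference of week 3 against week 0 changed sign in 7 of 20 alternatives for the intermediate GJB2 probe set and in 4 of 21 for CGN. Among these, leaving out the 3 arrays of high hybridization controls gave 0.039 for the intermediate GJB2 probe set and 0.035 for CGN. The causes were not tested.

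Leaving out 1 array or cow gave, for week 1 against week 0, -1.55 to -0.76 for GJB6, -0.48 to -0.26 for CGN, -0.27 to -0.14 for the most variable GJB2 probe set, -0.10 to -0.03 for the intermediate GJB2 probe set and 0.01 to 0.05 for the least variable GJB2 probe set. For week 3 against week 1 the ranges were 1.39 to 2.41, 0.25 to 0.46, 0.10 to 0.20, 0.05 to 0.10 and -0.035 to 0.0016, and for week 3 against week 0 they were 0.20 to 1.12, -0.059 to 0.011, -0.11 to -0.02, -0.042 to 0.030 and 0.0084 to 0.02.

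The count of probe sets called, 0 in each test, became 2 for week 1 against week 0 and 1 for the 3 weeks together in the paired fit with the cow as a replicate block, which changed no call of GJB2, GJB6 or CGN. It was 2 for week 3 against week 0 with quantile normalization and 2 for week 1 against week 0 with the SD filter. With the 3 high-control arrays removed it was 5, 6, 12 and 8 for week 1 against week 0, week 3 against week 0, week 3 against week 1 and the 3 weeks together. Leaving out 1 array or cow gave 0 to 45, 0 to 2, 0 to 38 and 0 to 28, with the highest counts without week 1 of cow 1 except for week 3 against week 0.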
